A study of Neurospora crassa with 22 samples.

Results

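The 400 regions described here are peaks of the transcription factor CLR-1 that lie more than 5 kb from the start codon of any gene in the peak tables. They come from list 1 of the 3 lists called for GFP-tagged CLR-1 in the filamentous fungus Neurospora crassa after 4 h on Avicel, a microcrystalline cellulose. Of the 2026 peaks in that list, 1910 lay on the 7 chromosomes. In 1556 of them the table named no gene inside the peak, and 696 of these had a centre over 5 kb from every start codon pooled from all 17 lists. The 400 that also overlapped a peak of list 3 by at least 1 bp are called the far peaks below. They are 20.9% of the peaks of list 1 on the chromosomes, and the 17 lists hold 42691 peaks in all. Position and presence in list 3 chose the far peaks, so neither is a finding. Of all 1910 peaks, 69% overlapped list 3 and 36.4% met the condition on distance. The set compared with them is the other 917 peaks of list 1 that overlap list 3. The 296 distant peaks of list 1 with no counterpart in list 3 were left out by the rule.

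CLR-1 and CLR-2 are zinc binuclear cluster factors needed for the fungus to switch on genes for cellulose breakdown, and XLR-1 is the factor of the same family needed for growth on xylan. Such factors are mostly studied at sites upstream of the genes they regulate. The N. crassa genome also has long stretches without genes, among them the centromeres and scattered AT-rich remains of transposons mutated by repeat-induced point mutation, which carry heterochromatin marks. A peak in chromatin immunoprecipitation with sequencing (ChIP-seq) is a stretch where immunoprecipitated fragments pile up above a background model.

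The series compared binding of the 3 factors between carbon sources in 22 ChIP-seq samples, of which 17 have a peak list. All cultures were first grown for 16 h on sucrose, and the labels give the strain as OR74A. CLR-1-GFP came from a strain with clr1-GFP under the ccg-1 promoter at his-3 and the native gene deleted (deltaclr1::HygR, mat'A'), immunoprecipitated with a GFP antibody. It has 3 lists at 4 h on Avicel, 1 at 24 h on Avicel and 2 at 4 h on sucrose. V5-tagged CLR-1 (clr1-V5::HygR and deltamus51::bar, mat'a') has 1 list at 4 h on Avicel, and its label gives the antibody as none. CLR-2 carried mCherry, again from the ccg-1 promoter at his-3, and was pulled down with an mCherry antibody. Its 3 lists at 4 h on Avicel come from a deltaclr2::HygR strain (matA), and its 1 list at 24 h on Avicel from a mat'a' heterokaryon whose label names no clr2 deletion. XLR-1-GFP, expressed in the same way in a deltaxlr1::HygR strain and pulled down with a GFP antibody, has 3 lists at 4 h on Avicel and 3 at 4 h on xylan. The tagged proteins other than CLR-1-V5 were thus driven by a promoter that is not their own. Nothing in the labels says whether lists of 1 group came from separate cultures, so p-values measure only the spread between lists.

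The far peaks were broad and had a low fold over background. Their median width in list 1 was 3217.5 bp (quartiles 2200 and 5086 bp, n = 400), against 1233 bp (1031 and 1867 bp, n = 917) for the other shared peaks. A width of 2 kb or more was seen in 319 far peaks (79.75%) and in 198 of the other shared peaks (21.6%), and 12 far peaks and 2 of the others reached 10 kb. The median fold enrichment, the authors' own ratio of tags over background for each peak, was 3.20 (quartiles 2.83 and 4.08), against 7.56 (5.15 and 11.83) for the other shared peaks. The far peaks held a median of 364.5 tags, the other shared peaks 165. Per kilobase of peak the 2 sets were close, with medians of 110 tags in far peaks and 120 tags in the others. No test was made between the sets, because peaks of 1 list are not replicates.

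**Figure D1:**
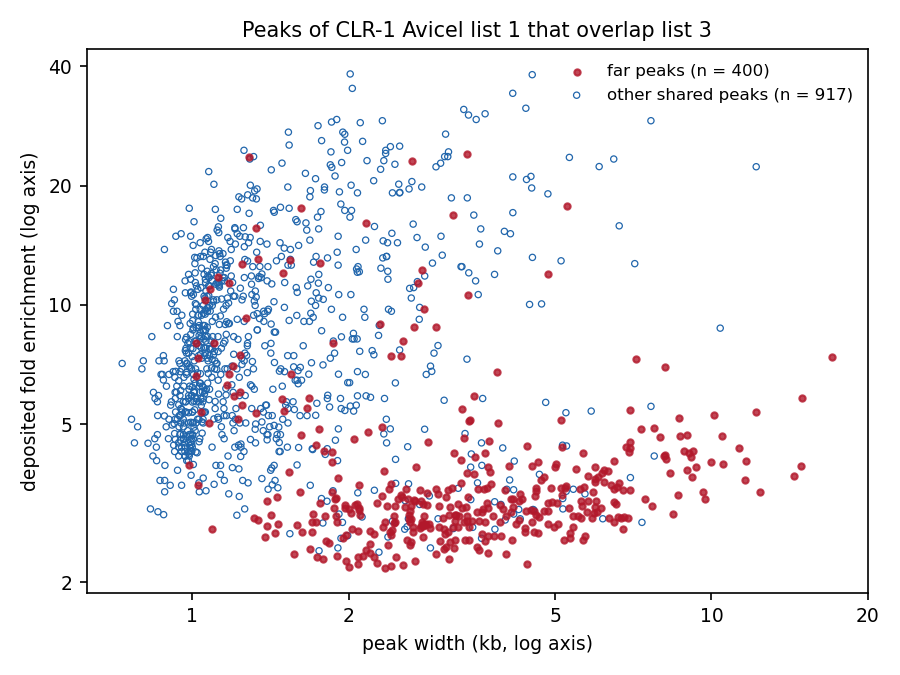
Width in kb (log axis) and deposited fold enrichment (log axis) of each peak of CLR-1 Avicel list 1 that overlaps list 3. Red points are the 400 far peaks, most of them in a band between 2 and 5 fold, with the widest at 17088 bp and a fold of 7.38. Blue circles are the 917 other shared peaks, most of them narrower and higher.

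The same contrast held in the other CLR-1 Avicel lists at 4 h. Peaks of list 3 on the far peaks had a median width of 2927 bp and a median fold of 2.72 (373 peaks), against 1499.5 bp and 7.87 on the other shared peaks (886 peaks). List 2, whose peaks held a median of 39 tags, against 205 in list 1, covered 187 far peaks. Its peaks there had a median of 1279.5 bp, 53 tags and a fold of 5.08 (186 peaks), against 901 bp, 49 tags and 12.9 on the other shared peaks (390 peaks). Over the 400 far peaks the fold in list 1 and in list 3 had a Spearman correlation of 0.616, and width one of 0.405. Both lists see the same stretches of genome, so these correlations are descriptions. The number of far peaks depends on which pair of lists is used. There were 253 with list 2 in place of list 3, and 209 with lists 3 and 2 in place of lists 1 and 3. A minimum score of 100 left 179.

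Most far peaks lay in long stretches without protein-coding genes. In the NC12 annotation, 386 centres fell between 2 neighbouring protein-coding genes, 11 beyond the outermost gene of a chromosome and 3 inside a gene. The intervals that hold far peaks had a median length of 33447.5 bp over peaks, against 3162 bp for the 657 other shared peaks between genes and 781 bp for all 8576 intervals. Distance chose the far peaks, so long intervals follow in part from the rule. The median distance to the nearest pooled start codon was 10493 bp, and the median gap to the nearest annotated gene 7128.5 bp. The pool held start codons of 6874 genes, while the annotation has 9729 protein-coding genes on the chromosomes. With both ends of all annotated genes added to the pool, 331 far peaks remained by the same rule.

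Of the 100 intervals over 20 kb, 90 held at least 1 far peak. All 100 together span 5024 kb and held 289 far peaks (72.25%) and 28 other shared peaks. All 24 intervals over 50 kb held far peaks, 146 in all, and 8 other shared peaks. All 9 over 100 kb held 83 far peaks and none of the other shared peaks. The rule makes most shared peaks in such long intervals far peaks. These splits thus largely restate the condition on distance and are not a finding. Each chromosome has 1 longest interval between genes, from 119.6 kb on chromosome IV to 347.8 kb on chromosome VII. These 7 intervals together held 71 far peaks (17.75%). There were 16 on chromosome V, 14 on II, 13 on VI, 12 on VII, 6 on I and 5 each on III and IV. Before overlap with list 3 was required, they held 34 distant peaks of list 1 on chromosome V, 25 on II and 39 on VI. The counts were 30 on VII, 14 each on I and III and 7 on IV. Many distant peaks there thus did not recur in list 3. On the 7 chromosomes as a whole, 400 of 696 distant peaks did. The sources used here give no centromere positions, so these intervals are named only by their length. Far peaks inside them had a median width of 3083 bp and a fold of 2.94, close to the 3287 bp and 3.31 of the 329 elsewhere.

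The far peaks were spread over all 7 chromosomes. Their share of the peaks of list 1 on a chromosome was between 17.3% on chromosome IV (53 of 307) and 26.2% on chromosome II (53 of 202), and chromosome I held the most, 107 of 474. Runs of far peaks whose neighbouring centres lay within 20 kb of each other are called clusters. There were 94 clusters of 2 or more, with 285 far peaks (71.25%). The other 115 stood alone. Clusters of 4 or more numbered 24 and held 122 far peaks. Of the other shared peaks, 68.5% stood in such runs of their own, and the median distance to the next peak of the same set was 21917.5 bp for far peaks and 24624 bp for the others. The sets differ in number, 400 against 917, and a share or spacing at a fixed distance depends on it. No correction for number was made, so these values do not rank the 2 sets by clustering. With a score of at least 100 the share of far peaks in clusters was 44.1%.

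The cluster with the most far peaks held 8 on chromosome II (3606287-3679359), between NCU08447 and NCU08696. These 8 peaks covered 48.2% of a span of 73.1 kb with no annotated protein-coding gene, at a median fold of 3.02. Clusters of 7 lay on chromosome I at 2273209-2340236, between NCU01848 and NCU09970, and at 6396359-6453941, between NCU09874 and NCU00995. Their median folds were 3.53 and 2.88. Of 4 clusters of 6, those with the longest spans lay on chromosome I at 4027146-4090393 and on chromosome V at 978666-1026435, the second inside the longest interval of that chromosome. None of the 5 clusters given by position had a peak in sucrose list 2. Every far peak in them, save 2 in the cluster on chromosome II, was in CLR-2 list 1, and all were in CLR-2 list 3.

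The widest far peak spanned 17088 bp on chromosome III (1727337-1744424), between met-8 and NCU06171. It held 2625 tags in list 1 at a fold of 7.38, with folds of 11.89 and 4.09 in lists 2 and 3. It was in no XLR-1 list. The next widest, 14929 bp on chromosome VII (137549-152477), filled most of an interval of 18.1 kb and held 2846 tags, the most of any far peak, at a fold of 5.83. A peak of 14904 bp on the same chromosome (276326-291229, fold 3.93) lay between nuo20.1, which encodes a subunit of respiratory complex I, and crf1-1. The other 2 were on chromosome V at 5980545-5994938 (fold 3.70) and on chromosome IV at 4647809-4660188 (fold 3.37).

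The far peak most distant from a start codon lay on chromosome VII at 2297096-2299047, 175.7 kb away, at a fold of 2.59. It was also in list 3 at a fold of 2.33, in the V5 list at 2.92, in sucrose list 1 at 3.54 and in all 3 CLR-2 lists at 4 h, at 0.80, 2.0 and 0.96. The highest folds lay nearer to genes, while the median changed little with distance. The 188 far peaks between 5 and 10 kb had a median fold of 3.54 and a highest of 23.99, and 49 of them had a fold of 5 or more. The 47 far peaks over 50 kb had a median of 2.94 and a highest of 9.27, and 4 reached a fold of 5. At the limit itself, the 5 far peaks just inside, at 5.02 to 5.09 kb, had folds of 3.44, 4.13, 4.25, 3.02 and 3.40. The 5 peaks just under it, at 4.83 to 4.98 kb, had folds of 4.16, 5.77, 7.11, 8.32 and 5.55.

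**Figure D2:**
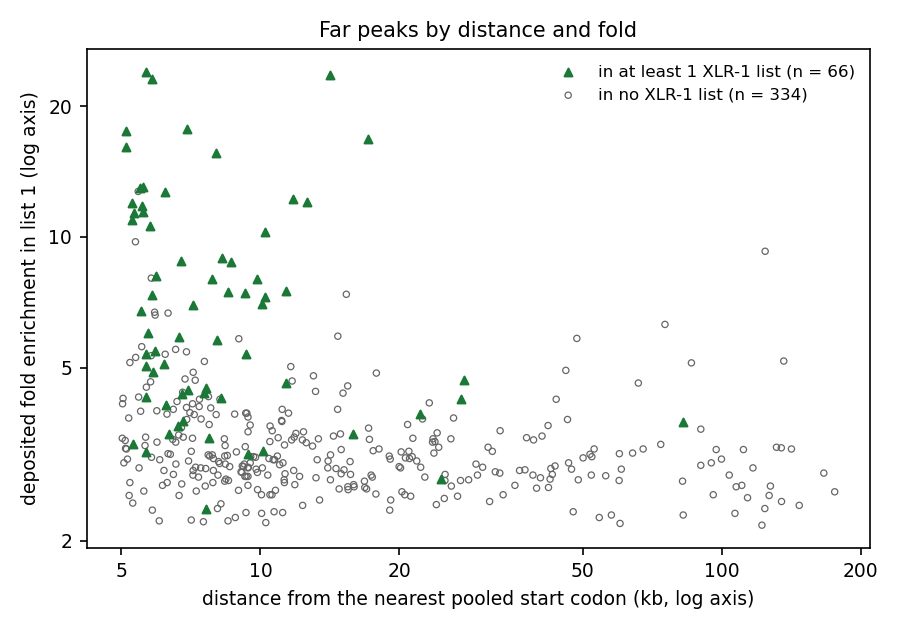
Distance of each of the 400 far peaks from the nearest pooled start codon (kb, log axis) against its fold in CLR-1 Avicel list 1 (log axis). Green triangles are the 66 far peaks in at least 1 XLR-1 list and grey circles the 334 in none. Folds of 10 or more end at 17.1 kb, and all but 1 of them are triangles.

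The other lists covered from 4.75% to 92.25% of the far set. Their start codons were in the pool, so a peak of list 1 within 5 kb of any of these could not be a far peak. The overlaps are thus not independent of the rule, and the part of the pooling in them was not tested. Among the CLR-1 lists whose peaks the rule did not use, list 2 on Avicel covered 187 of 400 far peaks (46.75%). It covered 42.6% of the other shared peaks and 41.9% of all 1910. With the centre of the peak required inside the list 2 peak the order turned, at 27% of far peaks, against 35.0% of the other shared peaks. The V5 list covered 307 (76.75%), against 51.5% of the other shared peaks, and 57.3% of all. Sucrose list 1 covered 291 (72.75%), against 60.9% of the other shared peaks, and 61% of all. The remaining CLR-1 lists covered a smaller share of the far peaks than of the others. Sucrose list 2 covered 54 far peaks (13.5%), against 70.2% of the other shared peaks, and 38.6% of all. The authors' median false discovery rate for its peaks was 16.4% on the far peaks and 17.9% on the other shared peaks. In sucrose list 1 it was 0% on both. The 24 h Avicel list covered 144 (36%), against 73.2% of the other shared peaks, and 50.2% of all. The 2 sucrose lists carry the same label and differed on the far peaks by more than on the rest of list 1.

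CLR-2 at 4 h covered more of the far peaks than of the other peaks in all 3 lists. List 1 covered 350 far peaks (87.5%), against 33.5% of the other shared peaks, and 60.3% of all. List 2 covered 309 (77.25%), against 20.8% of the other shared peaks, and 43.3% of all. List 3 covered 369 (92.25%), against 57.6% of the other shared peaks, and 68.5% of all. In all 3 at once were 295 far peaks (73.75%) and 120 other shared peaks (13.1%). The authors' values for these CLR-2 peaks point different ways. Their median fold on the far peaks was 0.73 in list 1, 2.41 in list 2 and 1.14 in list 3, against 0.605, 2.49 and 1.49 on the other shared peaks. Their median false discovery rate was 0.18% in lists 1 and 3 and 67.35% in list 2, against 0.88%, 2.75% and 100% on the other shared peaks of lists 1, 3 and 2. Their median score was 3100 in list 1, against 1104 on the other shared peaks, and 1428 in list 3, against 620 on the others. With a fold of at least 2 required in every list, a choice made after seeing the data, CLR-2 lists 1, 2 and 3 covered 0%, 71.9% and 5.78% of the far peaks kept. With a false discovery rate of at most 5%, also chosen then, they covered 86%, 0.25% and 84.75%. The single CLR-2 list at 24 h covered 48 far peaks (12%), against 50.1% of the other shared peaks, and 29.2% of all.

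XLR-1 peaks were rare on the far set. On Avicel, list 1 covered 28 far peaks (7%), against 34.5% of the other shared peaks, and 24.3% of all. List 2 covered 19 (4.75%), against 26.2% of the other shared peaks, and 17.9% of all. List 3 covered 32 (8%), against 54.4% of the other shared peaks, and 33.4% of all. On xylan, list 1 covered 37 (9.25%), against 24.8% of the other shared peaks, and 19.7% of all. Xylan list 2 covered 27 (6.75%), against 28.1% of the other shared peaks, and 18.5% of all. Xylan list 3 covered 29 (7.25%), against 21.7% of the other shared peaks, and 15.5% of all. At least 1 of the 6 XLR-1 lists held 66 far peaks (16.5%) and 661 other shared peaks (72.1%). The lists differ in how many of their own peaks met the conditions on distance and inside genes. On Avicel XLR-1 had 47, 32 and 76 such peaks, of which 46.8%, 53.1% and 35.5% overlapped far peaks. On xylan it had 91, 50 and 62, of which 33.0%, 50% and 45.2% did. The CLR-2 lists at 4 h had 1321, 930 and 1486, of which 25.7%, 42.7% and 34.7% did. The part of these numbers in the overlaps was not tested.

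**Figure D3:**
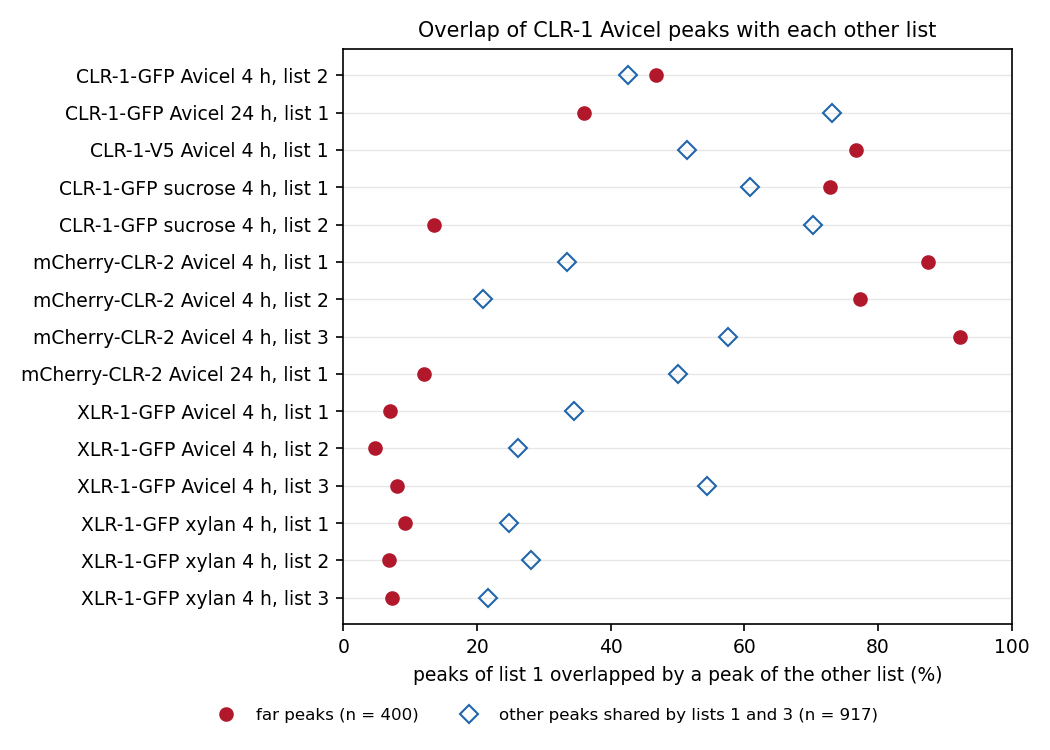
Share (%) of the 400 far peaks (red points) and of the 917 other shared peaks (blue diamonds) overlapped by each of the 15 other lists. The peaks of these lists did not choose the far peaks, but their start codons were in the pool. Red lies right of blue in the 3 CLR-2 lists at 4 h, the V5 list, sucrose list 1 and CLR-1 Avicel list 2, and left of it in the other 9 lists.

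The lists differ in the length of genome they cover. The CLR-2 lists at 4 h covered 6050, 4960 and 7112 kb, and the XLR-1 Avicel lists 1499, 567 and 6733 kb. The median width of a peak was 1025, 2242 and 1258 bp in the CLR-2 lists and 621, 606 and 878 bp in the XLR-1 Avicel lists. The part of these lengths and widths in the overlaps was not tested. When the centre of the far peak had to lie inside the other peak, the CLR-2 lists kept 86.25%, 47.25% and 85.5%, and the XLR-1 Avicel lists 2.75%, 2.5% and 5.5%. With each list cut to its 658 best-scored peaks, the CLR-2 lists kept 56.5%, 50.25% and 56.5%. Peaks with equal scores were taken by start position, highest first. In CLR-2 list 1 the lower quartile and the highest score on the far peaks were both 3100. The cut in that list thus fell among tied peaks and does not rank them. The mean share over lists was 85.7% ± 7.67 for CLR-2 and 6.58% ± 1.66 for XLR-1 on Avicel (SD, n = 3 each), a difference of 79.1 percentage points. In an exact two-sided permutation test over lists p was 0.1, the smallest that 3 against 3 allows, and 0.4 after Benjamini-Hochberg adjustment over 4 tests. The tag and the antibody differ with the factor and cannot be told apart from it. The start codons of both groups of lists were also in the pool used by the rule. The difference was 51.3 points with the 658 best-scored peaks, ties cut by position (exact p 0.1). It was 50.4 points with a false discovery rate of at most 5% (exact p 0.4). With a fold of at least 2 in every list it was 19.3 points (exact p 0.9). XLR-1 covered 6.58% ± 1.66 of the far peaks on Avicel and 7.75% ± 1.32 on xylan (SD, n = 3 each), a difference of -1.17 points within the spread of the lists (exact two-sided permutation p 0.5, adjusted 0.667).

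Within the far set, overlap with most other lists differed between classes of fold. The 21 far peaks with a fold of 10 or more, a class set after the values were seen, had a median width of 1620 bp and stood in a median of 9 of the 15 other lists. Of these 21, all were in the 24 h CLR-1 list, 20 in the V5 list, 19 in sucrose list 2, 17 in the 24 h CLR-2 list and 20 in at least 1 XLR-1 list. Of all 1910 peaks of list 1, the 24 h CLR-1 list held 50.2% and the V5 list 57.3%. Sucrose list 2 held 38.6% of all and the 24 h CLR-2 list 29.2%. Only 7 of the 21 were in CLR-2 list 1 at 4 h, against 60.3% of all. The 335 far peaks with a fold under 5 had a median width of 3388 bp and stood in a median of 5 lists. Of these 335, 92 (27.5%) were in the 24 h CLR-1 list, 9 (2.69%) in sucrose list 2, 16 (4.78%) in the 24 h CLR-2 list and 24 (7.16%) in any XLR-1 list, while 319 (95.2%) were in CLR-2 list 1. The 44 between these classes lay between them in most lists, with 26 (59.1%) in sucrose list 2 and 24 (54.5%) in CLR-2 list 1. Only 3 of the 21, against 271 of the 335, lay in intervals over 20 kb. The V5 list held 95.2% of the 21 and 77.9% of the 335, and sucrose list 1 held 85.7% of the 21 and 71.0% of the 335, so these classes were closer there. The class between them stood at 59.1% in the V5 list, below both, and at 68.2% in CLR-2 list 3, again below the 76.2% and 96.4% of the outer classes. The rule did not use the fold, but no test was made across peaks of 1 list. The 315 other shared peaks with a fold of 10 or more were not split by list. Whether these differences are particular to the far peaks was thus not tested.

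**Figure D4:**
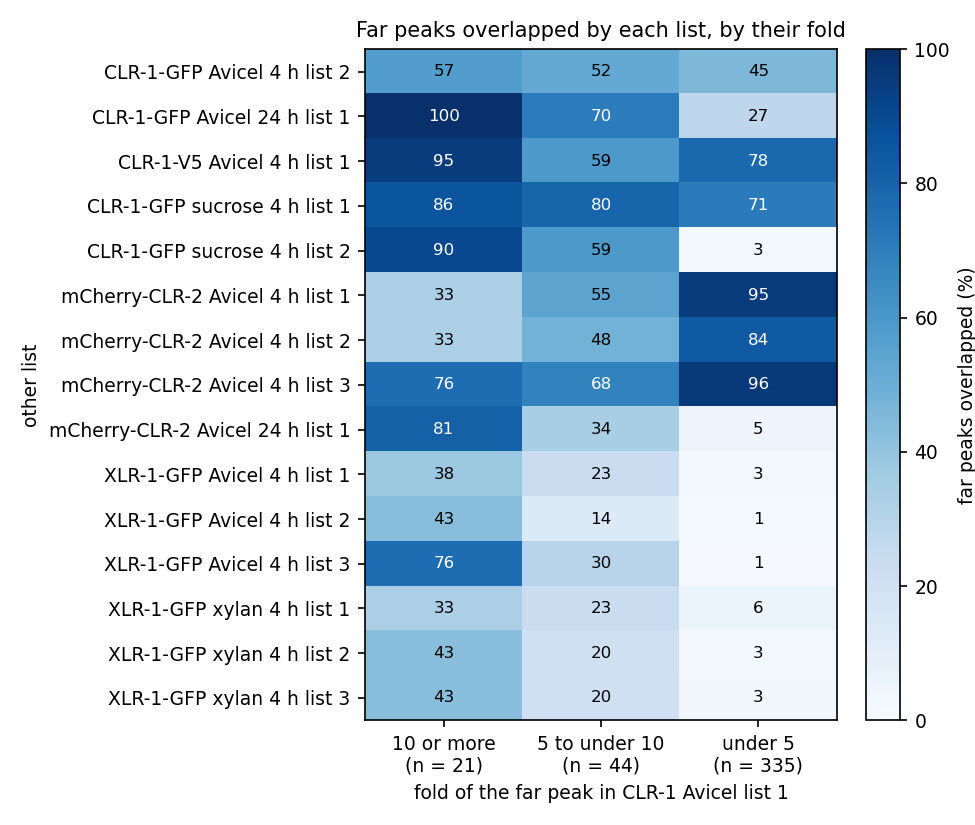
Share (%) of far peaks overlapped by each of the 15 other lists (rows), in the classes with a fold of 10 or more, 5 to under 10 and under 5 in CLR-1 Avicel list 1 (columns, n = 21, 44 and 335). Darker cells are higher shares, from 0 to 100. CLR-2 lists 1 and 2 at 4 h darken to the right, and the 24 h, sucrose list 2 and XLR-1 rows darken to the left.

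None of the 71 far peaks in the 7 longest intervals was in sucrose list 2, in the 24 h CLR-2 list or in 5 of the 6 XLR-1 lists, and 1 was in xylan list 1. Of the other 329 far peaks, 54 (16.4%) were in sucrose list 2 and 48 (14.6%) in the 24 h CLR-2 list. CLR-2 lists 1, 2 and 3 at 4 h held 97.2%, 81.7% and 95.8% of the 71, against 85.4%, 76.3% and 91.5% of the 329. The V5 list held 81.7% of the 71 and 75.7% of the 329, and sucrose list 1 held 77.5% and 71.7%. CLR-1 Avicel list 2 held 31.0% of the 71 and 50.2% of the 329, and the 24 h CLR-1 list 23.9% and 38.6%.

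The highest fold of a far peak was 23.99, on chromosome III at 2545351-2548738. This peak was centred inside an annotated gene, between NCU00081 and NCU00083, and 5.66 kb from the nearest pooled start codon. Its fold was 11.52 and 17.33 in CLR-1 Avicel lists 2 and 3, 8.12 at 24 h and 5.72 in the V5 list, against 9.11 and 3.86 in the sucrose lists. XLR-1 peaks met it in Avicel list 3 at 13.57 and in xylan list 2 at 11.65. It was thus listed on Avicel, sucrose and xylan and for all 3 factors.

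The second, on chromosome VI at 487782-489068, had a fold of 23.55 and lay 590 bp from NCU04713 and 14.1 kb from the nearest pooled start codon. It was in neither sucrose list. Its CLR-1 folds on Avicel were 12.44 and 19.41 in lists 2 and 3, 13.62 at 24 h and 14.55 in the V5 list. XLR-1 gave 91.95, 96.70 and 28.66 in the 3 Avicel lists and 147.02, 226.71 and 88.21 in the 3 xylan lists, the highest XLR-1 value on any far peak in each of the 6 lists. A peak 2 kb on, at 491132-494307, had a fold of 16.85. Unlike its neighbour it was in both sucrose lists, at 7.17 and 3.20, and in 2 XLR-1 lists, at 14.83 on Avicel and 5.48 on xylan. These 2 peaks share 1 interval of 21.7 kb and differ in the lists that hold them.

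The third, on chromosome I at 3158171-3160821, had a fold of 23.11 and lay in an interval of 5.78 kb between NCU16372 and NCU02674. It was in both sucrose lists, at 8.31 and 3.91. The remaining 7 of the 10 highest had folds of 12.96 to 17.74. Of these, the peak on chromosome III at 42178-43797 (17.53) ended 301 bp from mus-41. The peak on chromosome VI at 2590399-2591723 (15.59) lay 4884 bp from Bml, which encodes beta-tubulin, and the peak on chromosome I at 4424825-4426366 (12.96) 2581 bp from pdx-3. All 10 peaks were in the 24 h CLR-1 list and all but the second of them (23.55) in both sucrose lists.

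No far peak was in all 15 other lists and none was in no other list. The median was 5 lists (quartiles 5 and 6), against 6 (4 and 9) for the other shared peaks. In 14 lists were the peak on chromosome I at 8991244-8992365 (fold 11.78, nearest start codon NCU16488) and the one on chromosome II at 2847921-2850444 (fold 7.42). The first was missing from CLR-2 list 2 and the second from sucrose list 2. In 13 lists was the peak on chromosome III at 5079535-5080730 (fold 7.02), missing from sucrose list 2 and the 24 h CLR-2 list. These 3 were named after their values were seen.

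The genes nearest to far peaks included 2 of 35 listed genes of carbon use. The table named a gene for 317 far peaks, 189 genes in all, and 237 genes had the nearest start codon of at least 1, which is 3.45% of the genes in the pool. The 2 listed genes are 5.71% of the 35, all of which are in the pool, and a count this small is not read as different from that background. None of 17 cellulose degradation genes and none of 3 sugar transporter genes was among the 237. Of 8 genes for xylan breakdown and pentose use, 1 was, gh10-2, which encodes an endoxylanase. Its far peak, on chromosome III at 4589749-4594373, was 4625 bp wide at a fold of 4.01, in no XLR-1 list and not in CLR-1 Avicel list 2, and had a fold of 3.19 in sucrose list 1. Of 7 regulator genes, 1 was, vib-1, whose product is needed for heterokaryon incompatibility and for normal cellulase production. Its far peak, on chromosome V at 2210301-2212161, centred 5.04 kb from the start codon, had a fold of 4.25 in list 1 and 12.15 in list 3. It was also in the 24 h lists of CLR-1, at 5.59, and CLR-2, at 5.54, and in both sucrose lists, at 3.32 and 3.74. It was in no CLR-2 list at 4 h and no XLR-1 list. As the neighbouring gene on either side, 3 of the 35 listed genes (8.57%) flanked a far peak. The share was 3.61% of all protein-coding genes (351 of 9729), and this count too is not read as different. The third was cre-1, which encodes the carbon catabolite repressor, beside a far peak whose nearest start codon was that of bdp-1. This peak, on chromosome IV at 5168788-5171509, ended 4931 bp from cre-1 and had a fold of 11.39, with 8.29 and 15.48 in CLR-1 Avicel lists 2 and 3, 12.03 at 24 h and 7.62 in the V5 list, against 7.83 and 3.65 in the sucrose lists. It was named after its values were seen.

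Applied to every list, the conditions on distance and inside genes also split the lists. Peaks over 5 kb from every start codon made up 36.4%, 28.3% and 24.7% of the CLR-1 Avicel lists at 4 h, and 5.52% at 24 h. The share was 45.3% in the V5 list, and 43.5% and 3.03% in the sucrose lists. For CLR-2 it was 46.3%, 50.8% and 34.1% at 4 h and 3.47% at 24 h. XLR-1 had 2.06%, 3.57% and 1.11% on Avicel and 9.66%, 6.51% and 9.42% on xylan. In xylan list 2, 705 of 786 start codons stood in rows of another supercontig. Whether its inside genes stand in the right rows was not tested, so its share is less certain. The share was over 20% in 8 of the 17 lists and under 10% in the other 9. In the CLR-1 lists at 4 h on Avicel, the V5 list and sucrose list 1, such peaks had a lower median fold than the rest of their list, as in the V5 list with 2.82 for such peaks and 4.56 for the rest. In all 3 XLR-1 Avicel lists their median fold was higher, as in list 1 with 15.21 for such peaks and 13.12 for the rest. It was also higher in the 24 h CLR-1 list (9.57 and 9), the 24 h CLR-2 list (3.095 and 2.26) and sucrose list 2 (2.565 and 2.11). The CLR-2 lists at 4 h and the xylan lists were mixed. In both of these groups it was higher in list 1 and lower in lists 2 and 3, as in xylan list 3 with 8.35 and 8.52. The mean share was 29.8% ± 6.0 for CLR-1 on Avicel (n = 3) and 23.3% ± 28.6 on sucrose (n = 2, SD). The difference of 6.57 points did not exceed the spread (exact two-sided permutation p 0.8, adjusted 0.8), and without sucrose list 2 it was -13.7. CLR-1 and CLR-2 on Avicel at 4 h had 29.8% ± 6.0 and 43.7% ± 8.61 (SD, n = 3 each), a difference of -13.9 points (exact p 0.2, adjusted 0.4). It was -26.2 points with a false discovery rate of at most 5% (exact p 0.1) and -7.48 points with a fold of at least 2 (exact p 0.7). In both tests the smallest possible p was 0.1. Start codons of all lists tested were in the pool, and CLR-1 Avicel lists 1 and 3 chose the far peaks. These shares are thus not independent of the rule, and these p-values only describe the spread between lists.

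**Figure D5:**
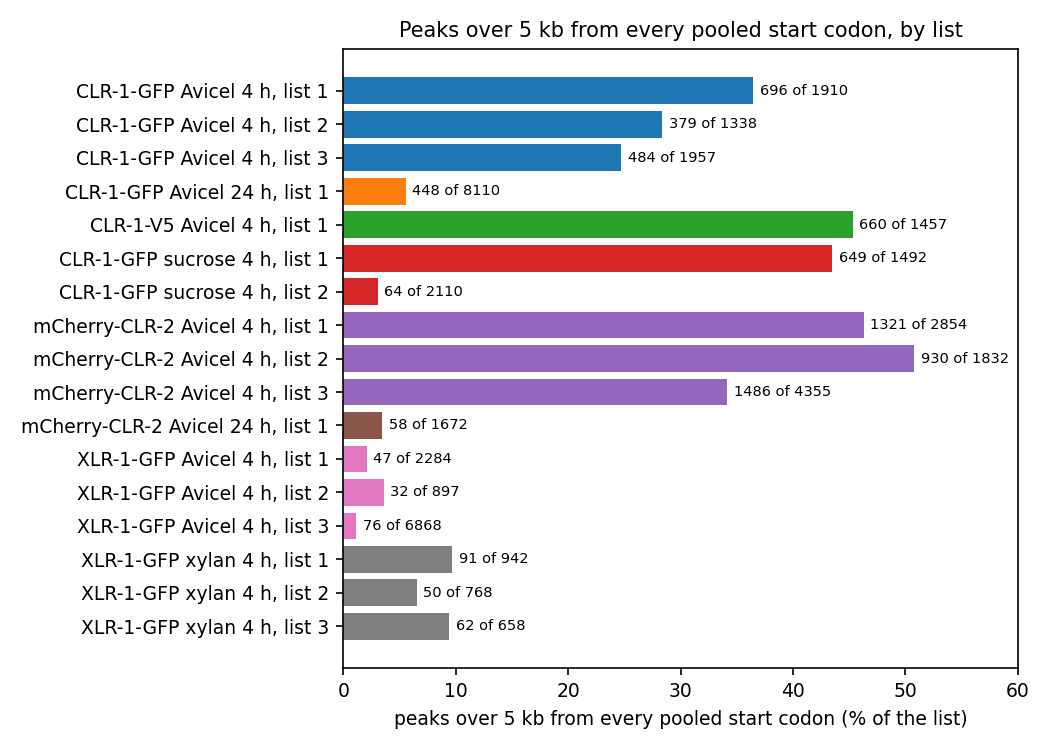
Share (%) of the peaks of each of the 17 lists, on the 7 chromosomes, that name no inside gene and lie over 5 kb from every pooled start codon. Bars are single lists coloured by group, with counts beside them. Bars over 20% belong to CLR-1 on Avicel at 4 h, V5, sucrose list 1 and CLR-2 at 4 h.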

How the data were processed

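The deposited peak lists of 17 of 22 ChIP-seq samples were used. The submitters' processing notes name Bowtie2 as the aligner, and the file headers are those of MACS peak tables. Settings, the caller's version and its control are not given in these sources. The authors deposited tags per peak as a count, a score of -10 times the log10 of the p-value, a fold (ratio) over background and a false discovery rate in percent, absent from 1 list. Depth is known only as tags per peak, and library totals are not used here. Lists are numbered as deposited, which does not tie them to library numbers. Inputs and mock samples have no list and were left out.

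Start codons were pooled from all lists and placed on the chromosome of their gene in the NC12 RefSeq annotation. In XLR-1 xylan list 2, 705 of 786 start codons stood in rows of another supercontig, against at most 5 in any other list. The time labels give no unit and were read as hours. Widths, distances, overlaps (1 bp or more) and exact permutation tests over lists were computed with Python 3.11.15, pandas 2.3.3 and SciPy 1.17.1, checked on 1000 simulated peaks with 0 wrong calls. Adjustment was by Benjamini-Hochberg over 4 tests, with a threshold of 0.05. The members, gene lists and tests were chosen with earlier results of these data known. Named regions were the 5 largest clusters, the 10 highest folds, the 5 widest, the 5 on each side of the limit, the 5 most distant, peaks in every or no other list, and the nearest genes of 4 gene lists. Base composition and motifs were not analysed here.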

Additional observations from a re-analysis of the deposited data

How the results depend on the processing

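Median width, tags and fold of the far peaks moved by less than the spread between lists under all 9 alternatives tried on them. That spread, the SD of the medians over the 3 CLR-1 Avicel lists, was wide, at 1058 bp, 197 tags and 1.17 fold. The median tags were 364.5, 52 and 417 in lists 1, 2 and 3. Staying within this spread is a loose limit and does not show that the medians were stable. The CLR-2 against XLR-1 and CLR-1 against CLR-2 differences kept their sign, with no p past 0.05 in a design that cannot go below 0.1. The number of far peaks was 212 beyond 10 kb and 179 with a score of at least 100, and 209 to 253 when a CLR-1 Avicel list was left out. With start codons placed by the supercontig of their row, as an alternative added after seeing the data, it was 365. The share in clusters was 44.1% with a score of at least 100, 52.75% within 10 kb, 82.5% within 50 kb and 50.7% to 61.7% with a list left out. XLR-1 on Avicel against xylan turned to 0.417 points when the centre had to lie inside the other peak (exact p 0.9) and to 0 with a score of at least 100 (exact p 1), and was -1.88 to -0.25 with a list left out. CLR-1 on Avicel against sucrose turned to -1.41 points with a score of at least 100 (exact p 1), and ran from -13.7 to 26.8 with a list left out. The number of other lists over 50% of the far peaks was 3, not 5, with a fold of at least 2. The cause was not tested. No paired analysis was possible because the lists carry no library numbers shared between groups. Tags per peak are the only depth in the files, so a peak missing from a list does not show that binding was absent.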
